A study of Mus musculus with 3 samples.

Results

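The genes described here are 47 that encode the machinery of DNA replication and the supply of its building blocks: origin licensing, origin firing, the clamp and lagging strand factors, the polymerases, deoxynucleotide synthesis and chromatin assembly behind the fork. They were chosen by name, and each was represented by the probe set with the highest mean signal over the arrays. Of the 47 genes, 46 had a single-gene probe set, out of 18194 named genes in all, and Chaf1a was not analysed here. All 46 were measured, and none was below the floor of 110 on any array; the floor is the median of all signals and stands for values too low to order.

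RNA from mouse LSK cells of 3 genotypes was hybridised to 3 Affymetrix arrays, 1 a genotype. LSK cells are the bone marrow fraction without lineage markers that carries Sca-1 and Kit and holds blood stem cells and multipotent progenitors. The groups were wild type (WT), p53 -/- (p53 KO) and p53 -/- Mef -/- (DKO), where Mef is the ETS transcription factor encoded by Elf4. The loss of p53 is thus shared by both mutant arrays. The labels give no strain, age, number of animals, sorting scheme or way in which either allele was made. The comparisons ask what changes when p53 is lost, and what changes when Mef is lost as well. There was 1 array per genotype, so every difference below compares a pair of arrays, carries no error and was not tested.

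DNA replication starts when the origin recognition complex, Cdc6 and Cdt1 load the Mcm2 to Mcm7 helicase onto DNA in G1, a step known as licensing. In S phase the Cdc7 kinase with its partner Dbf4, together with cyclin-dependent kinase, turns the loaded helicase into an active fork with Cdc45 and GINS, while geminin blocks reloading. Ribonucleotide reductase, thymidylate synthase and thymidine kinase supply the deoxynucleotides. Many of these genes are classical targets of E2F factors, and most blood stem cells are out of cycle while many of the progenitors sorted with them divide.

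The arrays share a trimmed mean of 500 by the authors' scaling, but the median signal was 98.0 on WT, 105 on p53 KO and 129 on DKO. The ratio of 3' to 5' signal for actin was 8.29, 6.20 and 9.19. For Gapdh it was 5.85, 6.61 and 5.90, so p53 KO had the lowest actin ratio but the highest Gapdh ratio. Elf4 had signals of 57.4 on WT, 182 on p53 KO and 151 on the array labelled DKO, so it was not lower there than on WT, where the value lies below the floor. No label says if its probe set lies in the deleted part, and p53 itself was not analysed here. Directions below therefore rest on the labels, and DKO stands for the array labelled DKO throughout. Among LSK markers Kit was at 4996 on WT, 2522 on p53 KO and 4873 on DKO, and Cd34 was at 2230.35, 2442 and 6633, while Ly6a, which encodes Sca-1, was not analysed here.

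The replication genes as a group were lowest on the DKO array. Of the 46, 32 had their lowest signal on DKO, 8 on p53 KO and 6 on WT. Only 3 (Mcm6, Rfc1 and Rpa2) had their highest signal on DKO, while 22 were highest on WT and 21 on p53 KO. Among the 7128 measured genes with a mean signal at or over the 75th percentile of signals (448), where 44 of the 46 members lie, DKO was the lowest array for 30.4% and the highest for 33.1%. DKO was the lowest array for 69.6% of the members.

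**Figure D1:**
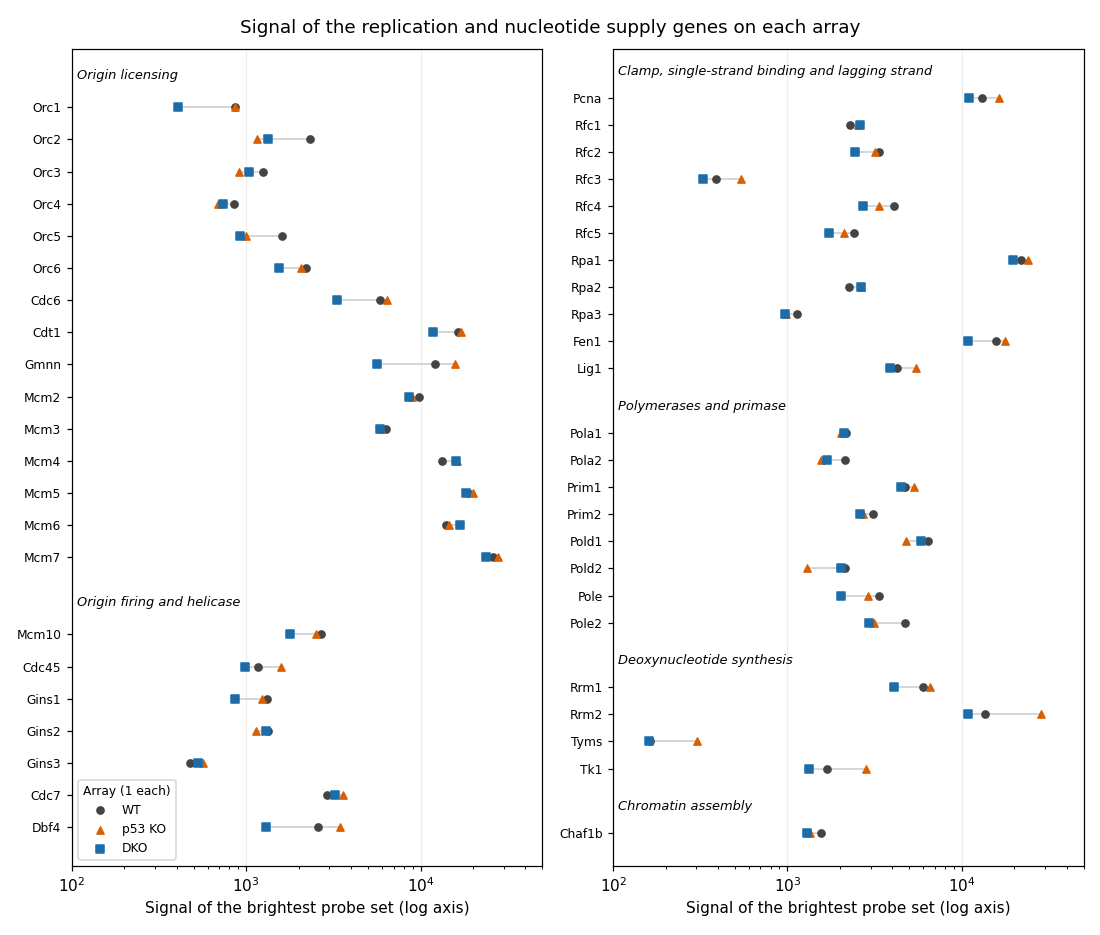
Signal of the brightest probe set (log axis) of each gene on the array of each genotype, grouped by role, with a grey line joining the lowest and the highest of the 3. Squares (DKO) sit at the low end of the line for 32 of 46 genes, while Mcm2 to Mcm7 have nearly coincident points.

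A log2 difference is the log2 signal of the first array named minus that of the second, so 1 is a 2-fold difference. For p53 KO against WT the median over the members was 0.03. DKO had a median of -0.25 against WT and of -0.23 against p53 KO. Over all 12597 measured genes these medians were 0.00, 0.07 and 0.11. Scaling affects the comparison with all genes, since cyclic loess brings the median of all genes to 0.00 in each comparison, and the members' medians were then 0.09, -0.24 and -0.23. Against WT, 40 of 46 members were lower on DKO, or 87.0%, where 41.1% of all measured genes and 52.9% of the bright genes were lower. The deficit on DKO was mostly small, with quartiles of the members at -0.56 and -0.09 against WT. The other measured probe sets of the members, 45 of 32 genes, had medians of -0.03, -0.21 and -0.20 in the order of comparisons above. They had the sign of the brightest probe set in 24, 28 and 25 of 45 cases, so for small differences the sign often depends on the probe set.

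Few members differed by 2-fold. On p53 KO against WT, 1 of 46 was higher and 1 lower by at least 2-fold, where 6.51% and 3.19% of all measured genes were. On DKO against WT, 0 were higher and 2 lower by that measure, beside 5.22% and 3.1% of all genes. On DKO against p53 KO, 0 were higher and 5 lower, beside 4.1% and 5.93%. Among the bright genes the shares higher and lower were 6.62% and 3.83%, 3.61% and 3.87%, and 2.88% and 7.11% in the same order of comparisons. The 5 lower on DKO than on p53 KO are 10.9% of the members. In the comparisons with WT the share at least 2-fold different, 2.17% in each direction for p53 KO and 4.35% lower for DKO, was below or near that of all genes. The 6 members past 2-fold in any comparison were Rrm2, Tk1, Gmnn, Dbf4, Orc1 and Orc2. Each array enters 2 of the 3 comparisons, so they are not independent of each other.

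**Figure D2:**
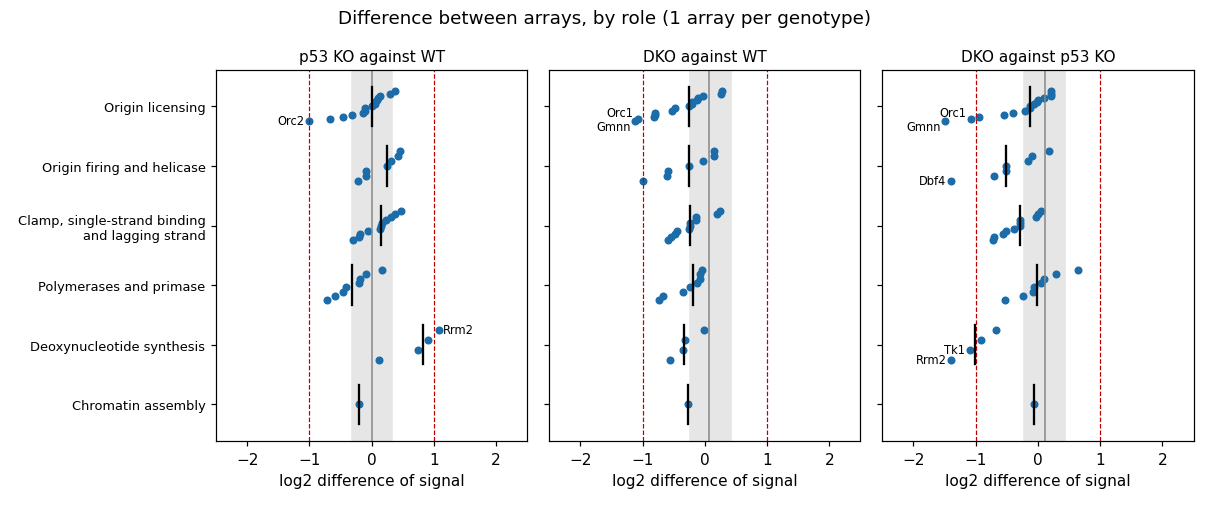
Log2 difference of signal for each gene by role in the 3 comparisons. Points are genes, black bars are medians of the role group, the grey band and line are the quartiles and median of all 12597 measured genes, and dashed lines mark 2-fold. Deoxynucleotide synthesis lies to the right for p53 KO against WT (median 0.83) and to the left in the last panel (median -1.01).

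By their brightest probe sets the deoxynucleotide genes had the role group medians furthest from 0. All 4 were then higher on p53 KO than on WT and lower on DKO than on p53 KO. Only Rrm2 and Tk1 kept that order over every measured probe set. Rrm1 was near WT on p53 KO, and for Rrm1 and Tyms the sign of p53 KO against WT changed with the probe set. The median for p53 KO against WT was 0.83, or 0.50 with the mean of all probe sets. Rrm2, the regulated small subunit of ribonucleotide reductase, had signals of 13533.5 on WT, 28502 on p53 KO and 10852 on DKO. Its p53 KO signal stood 2.11-fold over WT (log2 difference 1.07) and 2.63-fold over DKO, while DKO and WT differed by -0.32. All 3 Rrm2 probe sets were at least 2-fold higher on p53 KO than on WT, at 1.07, at 1.23 and, widest, with signals of 9094 against 2272, and at least 2-fold lower on DKO than on p53 KO, at -1.39, -2.02 and -2.14.

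Tk1, the thymidine kinase of the salvage route, had signals of 1696, 2840.5 and 1329 on WT, p53 KO and DKO, which is 0.74 for p53 KO against WT and puts DKO at -1.10 against p53 KO. Its single probe set thus followed the same order as Rrm2. Tyms, thymidylate synthase, was dim, at 162, 304 and 160.4, with differences of 0.91 and -0.92. Its other measured probe set ran the opposite way, at -0.41 and 0.90, so Tyms has no settled direction here. Rrm1, the large subunit of ribonucleotide reductase, was at 6035, 6548 and 4093, with p53 KO at 0.12 against WT and DKO at -0.68 against p53 KO. Its other measured probe set gave -0.18 and -0.56. The large and the small subunit therefore parted on p53 KO, where Rrm2 alone of the pair exceeded WT by 2-fold.

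Among the licensing genes, the regulators of loading were lower on DKO and the helicase subunits differed little by their brightest probe sets. Those helicase probe sets are all of a type that can bind more than 1 transcript. The helicase probe sets unique to 1 transcript, given below, were all lower on DKO than on WT. Gmnn, which encodes the licensing inhibitor geminin, had signals of 12131 on WT, 15701 on p53 KO and 5601 on DKO. DKO was 2.17-fold lower than WT (-1.12) and 2.80-fold lower than p53 KO (-1.49), the largest difference of any member by the probe sets used. Cdc6, the loader of the helicase, was at 5819, 6399 and 3305, so that DKO was at -0.82 against WT and -0.95 against p53 KO, just short of 2-fold. Cdt1, its partner in loading and the target of geminin, was at 16520.4, 17183 and 11800.1, with -0.49 and -0.54. By their brightest probe sets all 3 regulators were thus lowest on DKO and highest on p53 KO. The other measured Cdt1 probe set was also lowest on DKO but highest on WT, at 3954, 3615 and 2901.

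The origin recognition complex split by subunit. Orc1, the subunit whose abundance is known to change through the cell cycle, had signals of 860.3 on WT, 863 on p53 KO and 408 on DKO, nearly level on WT and p53 KO and 2.11-fold lower on DKO than on WT (-1.08). Its other probe set read 362, 643 and 424, with p53 KO at 0.83 and DKO at 0.23 against WT, so the lower value against WT belongs to the brighter probe set. Both Orc1 probe sets were lower on DKO than on p53 KO, at -1.08 and -0.60. Orc2 had signals of 2325 on WT, 1157 on p53 KO and 1334 on DKO, which is -1.01 and -0.80 against WT. Its second probe set gave -0.96 and -1.06 and its dimmest 0.27 and 0.05.

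Orc5 was likewise lower on both mutant arrays, at 1596, 999 and 919.5 (-0.68 and -0.80 against WT). Orc3 and Orc4 differed from WT by -0.46 and -0.31 on p53 KO and by -0.26 and -0.21 on DKO. Their dimmer probe sets did not all follow: for DKO against WT 1 of Orc3, at 204 on WT and 442 on DKO, gave 1.12, past 2-fold the other way, and 2 of Orc4 gave 0.32 and 0.35. Orc6 was at 2216, 2049 and 1545. Every Orc gene was lower on DKO than on WT by its brightest probe set, with a median of -0.66, while against p53 KO 3 were lower and 3 higher.

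By their brightest probe sets the Mcm2 to Mcm7 helicase genes lay close together across the arrays. Mcm7, for example, had signals of 26129 on WT, 27664 on p53 KO and 23840.2 on DKO, and Mcm5 had 18621, 19932.5 and 18259. Against WT, p53 KO differed by -0.14 to 0.29 and DKO by -0.20 to 0.27. Between the mutant arrays they ranged from -0.21 to 0.21. Mcm4 and Mcm6 were the 2 that exceeded WT on DKO, at 0.27 each. That order depends on the probe set: the next brightest probe sets gave -0.26 for Mcm4 and -0.46 for Mcm6. All 7 measured Mcm2 to Mcm7 probe sets whose names end in _at alone, the design's mark of a probe set unique to 1 transcript, were lower on DKO than on WT, with a median of -0.27. The 9 marked _s_at or _x_at, which can bind more than 1 transcript, had a median of -0.11, and 6 of them were lower. The brightest probe set of every Mcm2 to Mcm7 gene is among these 9. The remaining probe set, an _a_at of Mcm7, was at -0.64, and the lowest of all was an _at probe set of Mcm3 at -0.84. No Mcm2 to Mcm7 probe set reached 2-fold in any comparison.

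**Figure D3:**
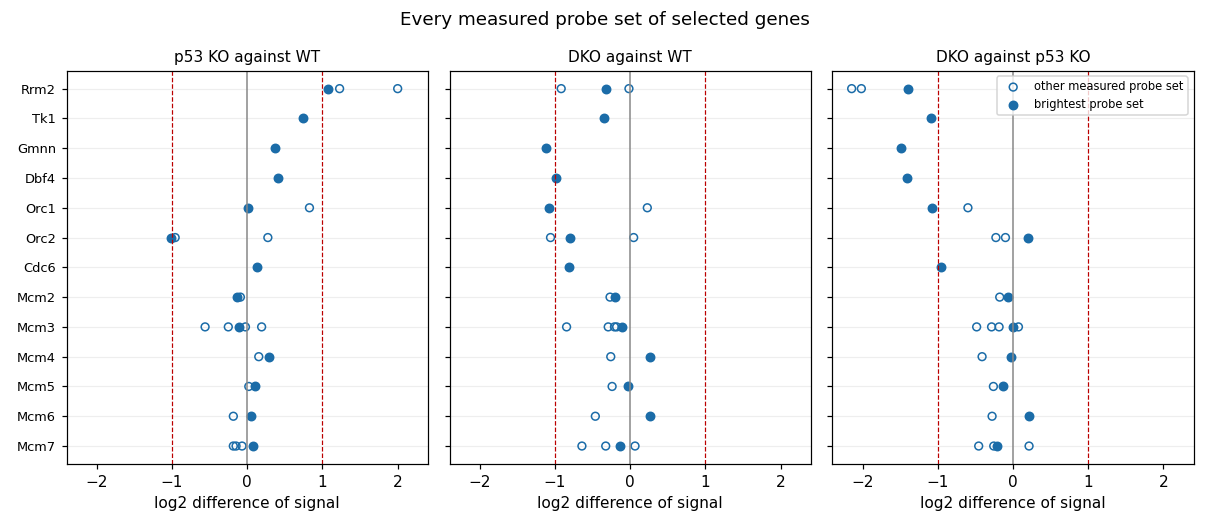
Log2 difference of signal for every measured probe set (filled, the brightest of the gene; open, the others) of the genes past 2-fold, Cdc6 and Mcm2 to Mcm7. The 3 Rrm2 probe sets lie on 1 side at or past 2-fold in the outer panels, whereas the Orc1 and Orc2 probe sets fall on both sides of 0 for DKO against WT, and open Mcm4 and Mcm6 points lie left of the filled ones.

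At origin firing, Dbf4 stood out from its kinase. Dbf4, the activating partner whose level sets Cdc7 activity, had signals of 2574 on WT, 3431 on p53 KO and 1297 on DKO, so that DKO was at -0.99 against WT, just short of 2-fold, and at -1.40 against p53 KO. Cdc7 itself was at 2907, 3586 and 3212, with differences of 0.14 and -0.16. Both were higher on p53 KO than on WT, by 0.41 and 0.30, but only Dbf4 was low on DKO. Cdc45, which joins the helicase at firing, was at 1164, 1590.4 and 978 by its brighter probe set (0.45 for p53 KO against WT), and its dimmer probe set gave -0.85 there.

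Mcm10, a further firing factor, was at 2681, 2519 and 1773, or -0.60 for DKO against WT. Of the GINS genes, Gins1 was also lower on DKO (-0.60, though its other probe set gave 0.53), while Gins2 (-0.04) and Gins3 (0.15) were near WT. Over the 7 firing genes the median for p53 KO against WT was 0.24, and DKO was at -0.25 against WT and -0.51 against p53 KO. With the mean of all probe sets these medians were 0.04, -0.21 and -0.16.

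The clamp and lagging strand genes were modestly lower on DKO, and none of the 11 reached 2-fold by its brightest probe set. Pcna, the sliding clamp, had signals of 13129.9 on WT, 16349 on p53 KO and 11077 on DKO, which is 0.32 and -0.25 against WT. Fen1, the flap nuclease that trims Okazaki fragments, was at 15708, 17676 and 10798, or -0.54 for DKO against WT, and its other probe set gave -1.03. Lig1, the ligase that seals them, was at 4249, 5490 and 3855. By their brightest probe sets all 3 genes were highest on p53 KO and lowest on DKO. The other Fen1 probe set was also lowest on DKO but highest on WT, at 2086, 2044 and 1021.

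Of the clamp loader genes, Rfc2, Rfc4 and Rfc5 were lower on DKO than on WT, at -0.44, -0.59 and -0.48, Rfc3 was at -0.26 and Rfc1, the large subunit, at 0.19. The dimmest Rfc1 probe set was past 2-fold on p53 KO against WT, at 1.27. Other Rfc2 probe sets gave 0.22 and 0.31. The single-strand binding genes were near WT on DKO, at -0.15 for Rpa1, 0.24 for Rpa2 and -0.23 for Rpa3. The other Rpa1 probe set gave 0.20. Rfc1 and Rpa2 were 2 of the 3 members highest on DKO by their brightest probe sets. The other Rpa2 probe set was lowest on DKO, at 344 on WT, 372 on p53 KO and 286 on DKO. The other Rfc1 probe sets were highest on p53 KO, at 718, 1031 and 897 and at 384, 922 and 667.

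By their brightest probe sets 7 of 8 polymerase and primase genes were lower on p53 KO than on WT, or 87.5%. That was so for 47.0% of all measured genes and 55.1% of the bright genes. All 8 were lower on DKO than on WT, beside 41.1% and 52.9%. Pola1, Pola2, Pold1 and Pold2 were lowest on p53 KO, and Prim1, Prim2, Pole and Pole2 on DKO, so the group had no single order. The median of the group against WT was -0.31 on p53 KO and -0.19 on DKO. Pold2, the accessory subunit of polymerase delta, had signals of 2136 on WT, 1295.5 on p53 KO and 2017 on DKO, low on p53 KO alone (-0.72). Pole2, a subunit of polymerase epsilon, was at 4698, 3129.7 and 2949, low on both mutant arrays (-0.59 and -0.67). Pole, its catalytic subunit, was at 3351, 2900.5 and 2022, or -0.73 for DKO against WT. Those genes were joined by Pold1 at -0.42 and Pola2 at -0.46 on p53 KO against WT, whereas Pola1 (-0.09), Prim1 (0.17) and Prim2 (-0.18) lay closer to WT. Pold2 was the sole member at least 1.5-fold higher on DKO than on p53 KO, at 0.64. Chaf1b, a subunit of the histone chaperone that follows the fork, was at 1549.95, 1347 and 1287, or -0.20 and -0.27 against WT.

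Promoter sequence from RefSeq (build GRCm38.p6) was set beside these values. Rrm2 and Orc1 were taken as members that differed, Cdc6 because it fell just short of 2-fold, and Mcm6 because it barely differed by its brightest probe set. Cdc6 and Mcm6 were chosen after their values were seen. The 250 bases before each start are given 5' to 3' on the strand of the gene. Capitals mark letters of the E2F consensus, searched as TTTCCCGC, TTTCGCGC, TTTGCCGC and TTTGGCGC, and of the CCAAT box, both on either strand, where matches may overlap.
Rrm2, chr12:24708004-24708253, plus strand: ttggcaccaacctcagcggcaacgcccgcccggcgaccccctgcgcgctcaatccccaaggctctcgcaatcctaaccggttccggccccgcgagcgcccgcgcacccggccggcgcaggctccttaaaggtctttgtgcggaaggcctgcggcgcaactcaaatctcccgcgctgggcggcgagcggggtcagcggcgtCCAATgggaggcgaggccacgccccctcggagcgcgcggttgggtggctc
Orc1, chr4:108579204-108579453, plus strand: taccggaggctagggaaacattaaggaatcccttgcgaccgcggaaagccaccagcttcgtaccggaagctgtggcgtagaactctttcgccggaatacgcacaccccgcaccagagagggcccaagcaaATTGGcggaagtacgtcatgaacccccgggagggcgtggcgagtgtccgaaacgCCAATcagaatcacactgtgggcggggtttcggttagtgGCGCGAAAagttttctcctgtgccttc
Cdc6, chr11:98907901-98908150, plus strand: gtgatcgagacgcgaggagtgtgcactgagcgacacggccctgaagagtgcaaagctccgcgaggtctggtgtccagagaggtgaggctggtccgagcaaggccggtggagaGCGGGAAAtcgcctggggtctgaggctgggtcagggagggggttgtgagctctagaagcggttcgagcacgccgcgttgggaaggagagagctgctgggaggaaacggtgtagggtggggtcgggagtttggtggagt
Mcm6, chr1:128359706-128359955, minus strand: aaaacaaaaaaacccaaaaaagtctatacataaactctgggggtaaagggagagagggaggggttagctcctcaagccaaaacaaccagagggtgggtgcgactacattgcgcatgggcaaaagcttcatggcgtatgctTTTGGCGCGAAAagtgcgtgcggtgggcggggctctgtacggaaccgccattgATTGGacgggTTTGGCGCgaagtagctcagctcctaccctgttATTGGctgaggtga

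The E2F letters occur once in the Orc1 window and once in that of Cdc6, at 3 places in that of Mcm6, and not in that of Rrm2, which holds a single CCAAT box. The search was also run with the TTTGAA element of cell cycle genes over all 300-base windows of the table, 250 bases before to 50 after a start. Of the 46 members, 39 had at least 1 window, and Gins1, Gins2, Gmnn, Mcm4, Pole, Prim2 and Rfc2 had none. E2F letters were in 14 of 48 member windows (29.2%), against 2.26% of all 32851 windows. The CCAAT box was in 52.1% of member windows against 37.4%, and TTTGAA in 16.7% against 17.9%. The 14 members with E2F letters had a median on DKO of -0.14 against WT and -0.11 against p53 KO, and the 25 without had -0.27 and -0.29. A comparison with probe sets ending in _at alone was added after seeing the data. The medians against WT were then -0.26 for 12 members with the letters and -0.27 for 23 without. Against p53 KO they were -0.27 and -0.18, the other way round, so the gap depends on the probe set in both comparisons. A match is a string of letters and was not tested as a binding site.

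Further genes of the pathway were taken from fixed lists. Of 29 accessory replication factors, 0 were at least 2-fold higher in any comparison and 2 were at least 2-fold lower on DKO against p53 KO, the fork checkpoint gene Clspn (-1.23) and the firing factor Ticrr (-1.02). That is 6.90% of the list, near the 5.93% of all measured genes. Their medians, 0.02, -0.31 and -0.24 in the order of comparisons above, were close to those of the members, although the median for DKO against WT was -0.16 with the mean of all probe sets. Of 21 S phase cyclin and E2F genes, 3 were at least 2-fold higher on p53 KO against WT, namely E2f2, E2f7 and Ccne2. On DKO, 2 were at least 2-fold lower against WT, namely Ccne1 and E2f2, and 6 were lower against p53 KO. These counts are 14.3%, 9.52% and 28.6% of the list, beside 6.51%, 3.1% and 5.93% of all measured genes. E2f2, an activator of replication genes, had signals of 1269.9 on WT, 5809 on p53 KO and 624 on DKO, with the order of Rrm2 and a wider span. Ccne1, the cyclin of S phase entry, was at 7112, 5934 and 1923. The other 4 of those 6 were Rb1 (-1.70), E2f8 (-1.24), Tfdp2 (-1.13) and Ccne2 (-1.04).

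The wider nucleotide metabolism list, 31 genes outside the members, ran differently from Rrm2 and Tk1. Its median was -0.58 for p53 KO against WT, with 4 of 31 at least 2-fold lower (Nme1 -2.41, Adsl -1.21, Mthfd1 -1.20 and Cad -1.19) and 1 higher, Dck, the deoxycytidine salvage kinase, at 1.01. That is 12.9% lower and 3.23% higher, beside 3.19% and 6.51% of all measured genes. Adsl acts in purine synthesis, Cad starts pyrimidine synthesis and Mthfd1 supplies folate units. On DKO against WT the median was -0.25, with Nme1 (-2.26) and Mthfd1 (-1.31) lower and Shmt1 (1.20) higher. On DKO against p53 KO it was 0.26, where Dctpp1 was higher (1.05) and Dck (-1.02) and Samhd1 (-1.12), a deoxynucleotide hydrolase, were lower. In both comparisons with DKO, 6.45% of the list was at least 2-fold lower and 3.23% higher. All measured genes had 3.1% and 5.22% against WT, and 5.93% and 4.1% against p53 KO. Not all salvage and base synthesis genes of the list ran as Dck, Adsl and Cad did: the salvage kinase gene Dguok had signals of 719, 482 and 946 (-0.58 for p53 KO against WT), and Impdh1 and Ctps2 were at 0.12 and 0.03 there.

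Among 12 genes of replication histones and chaperones, the chaperone gene Asf1b was at 2309.7, 3989 and 1263 (-1.66 for DKO against p53 KO) and Nasp was at -1.06 for DKO against WT. Of 15 genes of licensing degradation and the damage response, 1 was past 2-fold, Fbxo5, at -1.03 for DKO against p53 KO. That is 6.67% of the list, near the 5.93% of all measured genes. For scale, 29 genes of G2 and mitosis had medians of 0.50, -0.39 and -0.90. Of these, 13 (44.8%) were at least 2-fold lower on DKO against p53 KO.

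**Figure D4:**
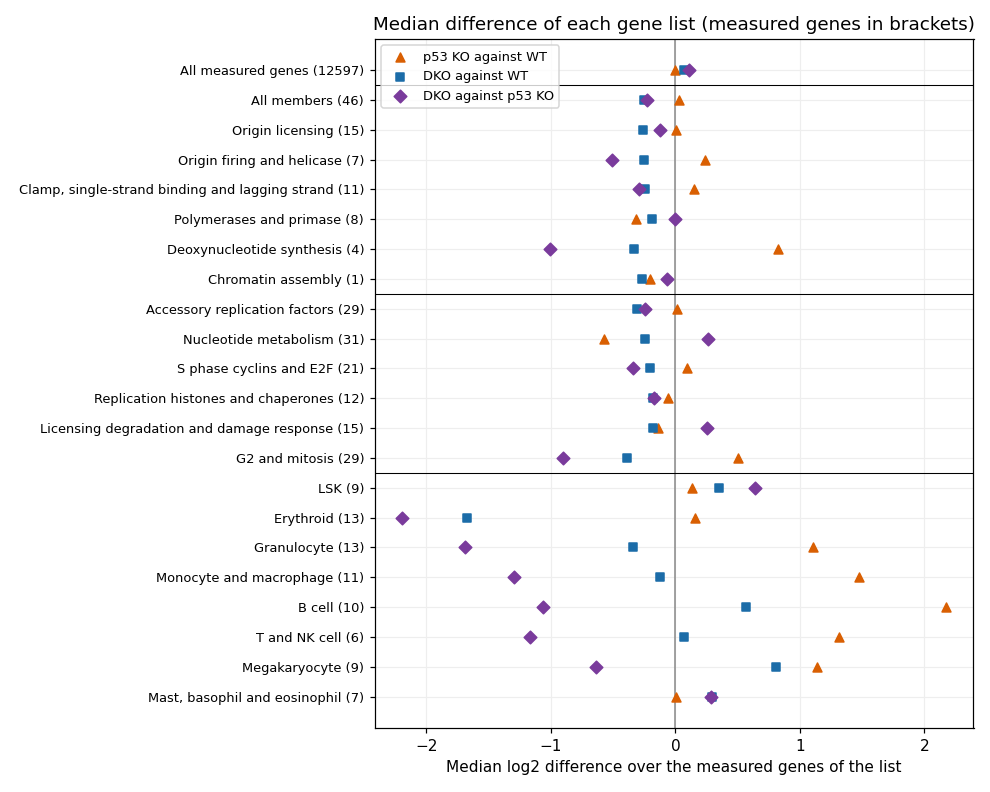
Median log2 difference over the measured genes of each list in the 3 comparisons, with the number of measured genes in brackets. Lines separate all measured genes, the replication genes by role, further lists of the pathway and cell cycle, and marker lists. On DKO the erythroid median lies at -1.68 against WT and -2.20 against p53 KO, beyond those of the replication groups.

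Marker lists of maturing blood lineages differed between the arrays too. Of 13 measured erythroid genes, DKO was at least 2-fold lower than WT for 10 (76.9%, beside 3.1% of all measured genes). DKO was that much lower than p53 KO for 11 (84.6%, beside 5.93%). The medians of the erythroid list were -1.68 and -2.20. The summed signal of that list was 123433 on WT, 138102 on p53 KO and 37889 on DKO. Car2, Slc4a1 and Car1 were the brightest by their mean over the arrays, and Hba-a1 was below the floor on every array. For p53 KO against WT the erythroid list split, with 7 genes higher and 6 lower, from -1.42 for Car1 to 2.68 for Alas2. Granulocyte genes, 13 measured, had summed signals of 140682, 250112 and 133829, and monocyte and macrophage genes, 11 measured, had 30026, 78757 and 32439, both highest on p53 KO. For DKO against WT both lists split, with 5 granulocyte genes higher and 8 lower, and 5 monocyte and macrophage genes higher and 6 lower. The granulocyte differences there ran from -1.19 for Camp to 1.54 for Ctsg. At least 2-fold higher on p53 KO against WT were 7 of 13 granulocyte, 10 of 11 monocyte and macrophage, 9 of 10 B cell and 6 of 9 megakaryocyte genes. In the other lists these were 3 of 6 T and NK cell, 3 of 7 mast cell, basophil and eosinophil, 2 of 13 erythroid and 0 of 9 LSK genes. Of all measured genes, 6.51% were at least 2-fold higher there. Summed signals of B cell genes were 2393, 8609 and 3756, of megakaryocyte genes 4948, 14056 and 8564, of T and NK cell genes 2020.1, 3821 and 3385, and of mast cell, basophil and eosinophil genes 3339, 7949.9 and 3850.2. Single genes carried the last 2 sums. Without Nkg7 the T and NK cell sum was 844, 2154 and 660.3, lowest on DKO. Without the eosinophil genes Prg2 and Epx the other sum was 1702, 1978 and 3477, highest on DKO. Most of that DKO sum was Cpa3 alone, at 613, 497 and 2020. Of the rest, Mcpt8 was highest on p53 KO, at 193, 652 and 381. Ms4a2, Gzmb and the dim Fcer1a were highest on DKO by smaller margins than Cpa3, and Tpsb2 was below the floor. Nkg7, Prg2, Epx and Cpa3 were singled out after their values were seen. Of the T and NK cell list Cd3e, Cd3g, Cd2 and Cd4 were below the floor on all 3 arrays. The summed signal of the LSK list was highest on DKO, at 18904, 16287 and 30291. Of its 9 measured genes, DKO was higher than WT for 8 and lower for 1, Kit (-0.04). Against p53 KO, DKO was higher for 7 and lower for 2, Procr (-0.41) and Mecom (-0.31). The part of these marker lists in the differences of the replication genes was not tested. In RNA from pooled cells, fewer cycling cells and less RNA per cell cannot be told apart.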

How the data were processed

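The authors deposited signal intensities on a linear scale for 45101 probe sets on 3 arrays, made with GCOS and MAS5 (no version given) per the submitters' processing notes. Per the labels' protocols, RNA was purified with RNeasy and labelled with the Affymetrix one cycle kit. Every array had a 2% trimmed mean of 500, which shows that the deposited intensities are scaled. Detection calls were not used here, and the number of arrays limits the precision. Probe sets were named from the platform annotation, updated by Entrez ID through RefSeq (GRCm38.p6) for 34754; 34958 carried 1 symbol, 932 several and 9211 none. For each gene the brightest probe set by mean signal was used, among those with 1 symbol. Signals were floored at 110 (the median of all signals) and log2 was taken; a gene was measured if any array reached the floor. Genes at least 2-fold different were counted, with no test and no p-value at 1 array per genotype. The text names members past 2-fold, the extremes of each role group, and further list genes past 2-fold. The members and lists were chosen with earlier results of these data known. Alternatives were quantile normalization, cyclic loess with 3 iterations (limma 3.58.1), centring on the median, floors at the 25th and 75th percentile, a pseudocount of 32, the mean of all probe sets, probe sets ending in _at alone, and 1.5-fold or 3-fold as the threshold. Simulated arrays with known differences were used to test the procedure. Python 3.11.15 and R 4.3.3 were used.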

Additional observations from a re-analysis of the deposited data

How the results depend on the processing

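The members' medians kept within 0.1 of the values given under 8 other settings of scaling, floor and probe set. They ranged from -0.34 to -0.23 for DKO against WT and from -0.30 to -0.16 for DKO against p53 KO, but from -0.06 to 0.09 for p53 KO against WT, where the sign changes. The count of members at least 2-fold lower on p53 KO against WT was 0 in place of 1 with quantile normalization, with cyclic loess and with a pseudocount of 32, where Orc2 was between -0.99 and -0.94, and with the mean of all probe sets, where it was -0.56. The count lower on DKO against WT was 1 in place of 2 with the floor at the 75th percentile and with the mean of all probe sets; median centring gave 3, Dbf4 being at -1.07. The count lower on DKO against p53 KO was 6 in place of 5 with quantile normalization, cyclic loess and median centring, and 4 under the higher floor or when probe sets were averaged. In a count added after seeing the data, DKO was the lowest array for 28 of 46 members with quantile normalization and cyclic loess, and for 33 with median centring and the mean of all probe sets. Against WT, DKO was lower for 46.9% of all measured genes with quantile normalization, 47.9% with cyclic loess and 51.5% with median centring. It was lower for 35, 37 and 40 of the 46 members under these settings. At 1.5-fold, 3 were higher and 4 lower on p53 KO against WT, 11 lower on DKO against WT, and 1 higher and 11 lower on DKO against p53 KO. At 3-fold the count was 0 in each of these. The shares of all measured genes at 1.5-fold and 3-fold are not given here, so these counts are not read as a result about the members. Over all settings of scaling, floor and probe set, DKO against p53 KO ranged from -2.02 to -1.34 for Rrm2, from -1.56 to -1.40 for Gmnn, from -1.47 to -1.36 for Dbf4, from -1.17 to -1.05 for Tk1 and from -1.19 to -0.84 for Orc1. The median of Mcm2 to Mcm7 for DKO against WT ran from -0.27 to 0.06, so it has no settled direction. No paired analysis was possible because each genotype has 1 array, and no difference here has a replicate behind it. Signals near the floor, such as those of Tyms, are the least precise.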
